A study of Mus musculus with 3 samples.

Results

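The 10 genes Aspm, Spag5, Tpx2, Hmmr, Nusap1, Ckap5, Prc1, Anln, Arhgap11a and Prr11 code for proteins of the mitotic spindle, the spindle midzone and cytokinesis, with Prr11 kept apart as a cell cycle gene of less settled role. They were followed by symbol through the count tables of 3 mouse medulloblastomas, and 10 of 10 were among the 19744 genes listed. The set was chosen by values of the same tumours already known, in which Aspm, Spag5, Prr11 and Prc1 were high in barcodes rich in cell cycle counts. Differences of these genes between cycle-rich and cycle-poor barcodes are therefore given as descriptions. Each tumour came from a separate mouse of genotype hGFAP-Cre/SmoM2 (G-Smo) on the C57BL/6 background. Here a Cre driven by the human GFAP promoter, which is active in neural stem and progenitor cells as well as astrocytes, turns on SmoM2, a constitutively active Smoothened. The transgenic mice are not a model of 1 cell type only, since several neural lineages descend from the cells with Cre. All 3 mice had received palbociclib, an inhibitor of CDK4 and CDK6, at 25 mg/kg in the polyoxazoline nanoparticle form POx-palbo. It was injected intraperitoneally on 5 consecutive days from postnatal day 10, and tumours were taken at day 16. The 3 tumours form 1 group, and untreated tumours are not analysed here, so no value below is an effect of the drug.

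In a dividing cell, microtubules grow from the spindle poles and from the chromosomes and are gathered into a bipolar spindle. Antiparallel microtubules left between the separating chromosomes are then bundled into the midzone, which positions the contractile ring. Palbociclib acts earlier, at the passage from G1 into S phase. Granule neuron progenitors, the cells that give rise to these tumours, divide under Hedgehog signalling and express Neurod1, a neuronal transcription factor, as they begin to differentiate. Transcripts of spindle genes build up in G2 and M phase, and many such genes carry in their promoters a cell cycle genes homology region (CHR), read by the MuvB complex, and CCAAT boxes, read by NF-Y.

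Promoter sequence was taken from RefSeq (build GRCm38.p6), matched by symbol, for 9 of the 10 genes. The sequences of 6 promoters are shown because they place the CHR and CCAAT letters against the start of transcription. The CHR letters lie near it in Aspm, Spag5, Hmmr and Prc1 and farther upstream in Ckap5, whose last CCAAT begins at position -2. Nusap1 has neither motif. Each runs 5′ to 3′ on the gene's strand from 120 bases before the start to 30 bases after. Capitals mark TTTGAA, the core of the CHR, and CCAAT, on either strand, so that they also appear as TTCAAA and ATTGG. The windows were chr1:139454653-139454802 (plus strand) for Aspm, chr11:78301471-78301620 (plus) for Spag5, chr11:40733408-40733557 (minus) for Hmmr, chr7:80294331-80294480 (plus) for Prc1, chr2:91526642-91526791 (plus) for Ckap5 and chr2:119618178-119618327 (plus) for Nusap1.
Aspm: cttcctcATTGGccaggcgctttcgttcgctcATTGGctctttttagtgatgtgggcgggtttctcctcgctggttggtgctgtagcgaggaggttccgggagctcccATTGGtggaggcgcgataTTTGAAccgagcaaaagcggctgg
Spag5: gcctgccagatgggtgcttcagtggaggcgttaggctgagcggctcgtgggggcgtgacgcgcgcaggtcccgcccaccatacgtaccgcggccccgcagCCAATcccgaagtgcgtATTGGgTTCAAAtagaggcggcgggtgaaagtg
Hmmr: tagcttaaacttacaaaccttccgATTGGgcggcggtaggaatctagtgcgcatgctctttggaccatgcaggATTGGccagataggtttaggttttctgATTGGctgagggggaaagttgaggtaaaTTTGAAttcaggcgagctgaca
Prc1: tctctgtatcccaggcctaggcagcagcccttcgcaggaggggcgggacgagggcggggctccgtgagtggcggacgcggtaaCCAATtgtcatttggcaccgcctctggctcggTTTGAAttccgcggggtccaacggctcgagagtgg
Ckap5: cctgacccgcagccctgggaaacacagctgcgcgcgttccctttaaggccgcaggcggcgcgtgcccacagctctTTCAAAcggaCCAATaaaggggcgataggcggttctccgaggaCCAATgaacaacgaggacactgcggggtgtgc
Nusap1: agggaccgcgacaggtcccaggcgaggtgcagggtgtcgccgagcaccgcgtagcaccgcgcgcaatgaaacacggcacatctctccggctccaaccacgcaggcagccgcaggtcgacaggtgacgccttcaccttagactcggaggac

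Over the whole RefSeq window, 250 bases before to 50 after the start, TTTGAA stood on either strand in 8 of 9 promoters (88.9%), against 18.1% of 27025 promoters of the same length. CCAAT stood in 7 of 9 (77.8%), against 37.9%, and both motifs in 7 of 9, against 7.12%. The CHR letters began 5 bases before the start in Prc1 (position -5), and just after the start at position 7 in Aspm, 4 in Spag5, 9 in Hmmr, 4 in Prr11 and 22 in Anln. They lay farther upstream in Ckap5 (position -45) and Arhgap11a (position -99). Nusap1 had neither motif in this window. The promoters of the mitosis marker genes used below held TTTGAA in 7 of 8 cases, those of the S-phase list in 15.2% and those of the neuronal differentiation list in 6.25%. CCAAT stood in 100%, 69.7% and 62.5% of these lists, so its high share was not particular to the 10 genes. Both motifs stood in 87.5%, 12.1% and 6.25%. The lists of spindle assembly and pole, midzone and cytokinesis, and kinetochore and checkpoint genes used below had lower shares than the 10 genes. TTTGAA stood in 36.4%, 55.6% and 47.8% of their promoters, and both motifs in 27.3%, 38.9% and 39.1%. A match describes the letters and is not evidence of binding.

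Transcripts were counted by Drop-seq, a droplet method that tags the 3′ end of each captured mRNA with a cell barcode and a unique molecular identifier (UMI). The tables held 8827, 2330 and 9802 barcodes with 1150463, 248617 and 1324350 counts in tumours 1, 2 and 3, and the median barcode had only 84, 85 and 105 counts. Levels are given as counts per 1000000 counts of a tumour or set (CPM). Barcodes of at least 200 counts numbered 1060, 148 and 1059. Tumour 2 was thus the least deeply sampled, and mitochondrial genes took 11.4% of its counts, against 3.97% and 5.61%. Shared barcodes between pairs of tumours numbered 3, 8 and 3, none of them of 200 counts or more. In barcodes of at least 200 counts, granule neuron marker genes, which include Neurod1, summed to 2885, 2828 and 3489 CPM and granule progenitor markers to 2520, 2245 and 3100, so both ends of the labelled lineage were represented. Myeloid markers summed to 819, 2936 and 1097 CPM.

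The 10 genes together gave 5149 counts, at 1527, 2240 and 2141 CPM in tumours 1, 2 and 3 (mean 1969 ± 386, SD, n = 3). Tumour 1 was the lowest, and its 95% counting interval (1457 to 1600 CPM) did not meet those of tumour 2 (2058 to 2434) and tumour 3 (2063 to 2221). Neurod1 alone was at a like level, 1718, 2337 and 2317 CPM, and was lowest in the same tumour. Values of single genes below are CPM of 3′ tags and not per length, so their order describes captured tags.

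Ckap5, a microtubule polymerase that is also present outside mitosis, gave the most tags, at 278, 523 and 384 CPM (mean 395 ± 123). Among the other genes of spindle assembly, Tpx2, the activator of Aurora A, had 236, 330 and 335 CPM (300.3 ± 55.3). Nusap1, which binds and bundles spindle microtubules near chromatin, had 251, 314 and 330.0 CPM (298 ± 41.6). The means of these genes lie closer together than their spread over tumours. Hmmr, a spindle-binding partner of Tpx2, stood at 141, 209 and 233 CPM (194 ± 48.0). Spag5 (astrin), which holds spindle poles and kinetochore fibres together, had the lowest mean of all, with 40.9, 36.2 and 30.2 CPM from 47, 9 and 40 counts (35.8 ± 5.34). Aspm, which focuses microtubule minus ends at the poles, had 99.96, 169 and 151 CPM (140 ± 35.8).

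Of the midzone and cytokinesis genes, Prc1, which crosslinks the antiparallel midzone microtubules, had 263, 334 and 409 CPM (335 ± 72.6). Arhgap11a, a RhoA-directed GTPase-activating protein, had 102, 137 and 125 CPM (121 ± 17.8), and Anln (anillin), the scaffold of the contractile ring, had 75.6, 121 and 71.0 CPM (89.1 ± 27.5). Prr11 had 39.1, 68.4 and 74.0 CPM (60.5 ± 18.7). In the order of means, Ckap5, Prc1, Tpx2, Nusap1, Hmmr, Aspm, Arhgap11a, Anln, Prr11 and Spag5, the values of each gene over tumours overlap those of the next, except between Nusap1 and Hmmr. Tumour 1 was the lowest for 8 of the 10 genes. Spag5 and Anln were lowest in tumour 3.

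**Figure D1:**
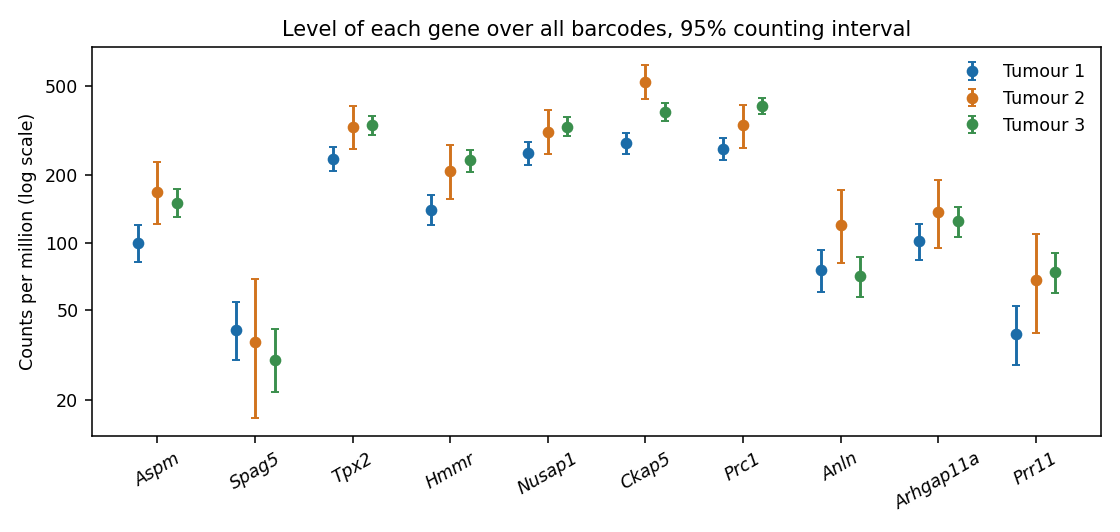
Level of each gene over all barcodes in CPM (log axis) by tumour; points are tumours and bars are 95% counting intervals. Tumour 1 is lowest for 8 genes, and Spag5, at 30.2 to 40.9 CPM, has the lowest mean.

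Barcodes were next divided by depth, since most hold too few counts for a cell to be described. Spag5 and Ckap5 were higher per count in deep barcodes, of at least 200 counts, than in shallow ones of under 100, in 3 of 3 tumours. The log2 ratio was 1.14, 1.35 and 1.45 for Spag5 (mean 1.31 ± 0.16) and 1.14, 0.43 and 0.85 for Ckap5 (0.80 ± 0.36). Tpx2 (0.59, 0.32 and 0.30) and Anln (0.85, 0.26 and 1.24) were also higher in the deep barcodes of each tumour. Nusap1 went the other way, with ratios of -0.48, -0.40 and -0.67 (-0.52 ± 0.14). It was the only one of the 10 genes lower in the deep barcodes of every tumour, and barcodes of under 100 counts held 38.1% of its counts but 33.2% of all counts.

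For the other genes the tumours did not share a direction. Aspm had ratios of 1.02, -1.14 and 1.40, Hmmr 0.33, -0.24 and 0.24, Prc1 -0.05, 0.47 and 0.66, Arhgap11a 0.87, 0.43 and -0.31, and Prr11 -0.32, -0.11 and 0.50. Their sum with the other genes was higher in deep barcodes, by 0.42, 0.13 and 0.41. The mitosis marker list (Mki67, Top2a, Ccnb1, Ccnb2, Cdc20, Cdk1, Ube2c, Ccna2 and Ccnf) had 0.54, 0.95 and 0.55, and Neurod1 had -0.55, -0.76 and -0.20. Myeloid markers also moved with depth, by -0.01, 2.88 and 0.80, and their part in the ratios was not tested. What depth has to do with these ratios, through cell size, debris or doublets, was not tested.

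**Figure D2:**
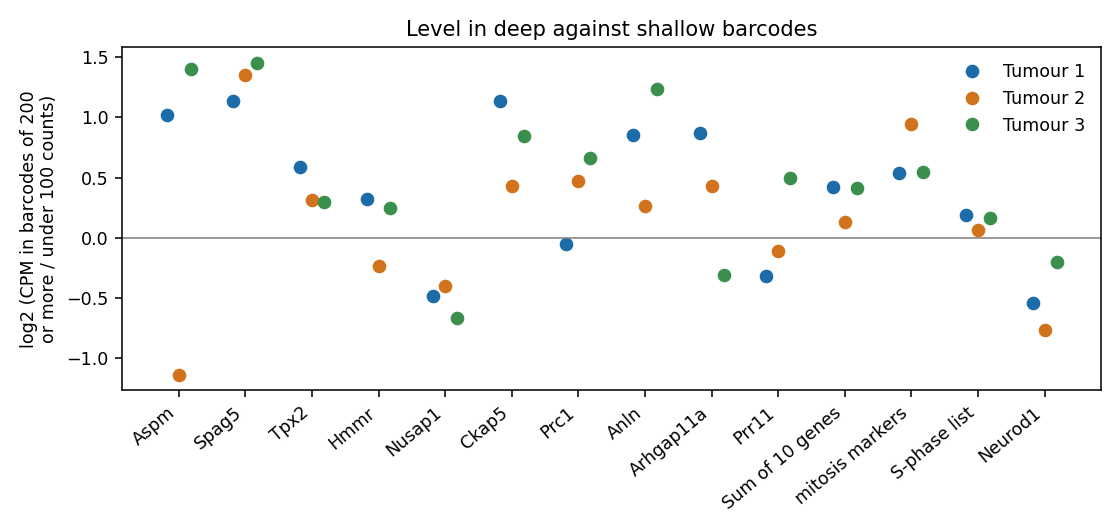
Log2 ratio of the level in barcodes of at least 200 counts to that in barcodes of under 100 counts, by gene and list; each point is 1 tumour. Spag5 and Ckap5 lie above 0 and Nusap1 and Neurod1 below 0 in all 3 tumours. The Spag5 point of tumour 2 rests on 3 counts in barcodes of under 100 counts.

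To compare barcodes at equal depth, each barcode of at least 200 counts was thinned to 200 counts drawn at random. A UMI of the 10 genes was then found in 20.8%, 32.4% and 30.3% of barcodes in tumours 1, 2 and 3 (mean 27.8% ± 6.22), and in 36.2% ± 4.46 without thinning. The highest mean share after thinning was that of Ckap5 (7.54% ± 1.56), followed by Tpx2 (7.03% ± 3.29), Prc1 (6.21% ± 1.85) and Nusap1 (4.54% ± 0.913), and the lowest that of Spag5 (0.792% ± 0.100). At this depth a barcode without a UMI is not a cell without the transcript. Barcodes with at least 3 counts of the genes numbered 30, 9 and 45, and those with at least 2 different genes 61, 14 and 87. The variance of the thinned count over barcodes was 1.80, 1.69 and 1.78 times its mean, so the counts were gathered in some barcodes. Averaged over tumours, they were gathered less than those of the mitosis markers (mean 2.10) and more than those of Neurod1 (mean 1.37). In tumour 3 the mitosis markers were nearly level with the 10 genes, at 1.81. The S-phase list was near the 10 genes, at 1.68, 1.79 and 1.61 (mean 1.69).

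Free RNA in droplets gives UMIs in cells that do not express a gene. Barcodes called myeloid by at least 3 counts of at least 2 markers numbered 38, and 7 of them (18.4%, 95% exact binomial interval 7.74 to 34.3) had a thinned UMI of the 10 genes, at a median depth of 525.5 counts. Barcodes without markers of another cell type had one in 571 of 2158 cases (26.5%), at a median depth of 308, a share that lies inside the myeloid interval. On the level scale the myeloid barcodes had 974.7 CPM (642 to 1418) and those without other markers 2241 CPM. Whether myeloid barcodes hold free RNA, doublets or dividing cells was not tested. Barcodes with granule neuron markers had 1298 CPM (1119 to 1497) and those with granule progenitor markers 2374 CPM (2126 to 2644), pooled over tumours. The 44 barcodes with astrocyte markers had 2115 CPM, but 37 of their 80 counts came from 1 barcode of tumour 1, which had 3053 counts, 12 of them Hmmr, with 63 counts of mitosis markers and 0 of Neurod1.

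Barcodes with one of the 10 genes more often carried a mitosis marker. Of the 589 barcodes with a thinned UMI of the genes, 311 also had a mitosis marker UMI (52.8%, interval 48.7 to 56.9), against 395 of 1678 without (23.5%). The share was 50.9%, 56.3% and 53.6% with the genes and 20.6%, 23.0% and 27.0% without, by tumour, and the groups do not overlap. Gene by gene, pooled over tumours, it was 79.4% with Anln, 68.7% with Aspm, 68.4% with Spag5, 67.9% with Arhgap11a, 65.5% with Prc1 and 64.8% with Hmmr. It was lower with Nusap1 (58.9%), Tpx2 (52.0%), Prr11 (48.4%) and Ckap5 (46.5%). Ckap5 thus had the lowest pooled share, and the barcodes without Ckap5 stood at 29.9%. In tumour 3, however, Prr11 (40%) and Tpx2 (48.3%) were below Ckap5 (49.5%). Some of these shares rest on few barcodes, 15 of 31 for Prr11 (interval 30.2 to 66.9) and 13 of 19 for Spag5 (43.5 to 87.4). Barcodes with one of the genes also more often held another, pooled over tumours. Another of the 10 genes was found in 54.9% of barcodes with Prc1 and 21.0% without, but in 32.6% with Ckap5 and 19.9% without. Tpx2 and Prc1 were the pair most often seen together, in 21 barcodes, ahead of Nusap1 and Prc1 in 20.

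**Figure D3:**
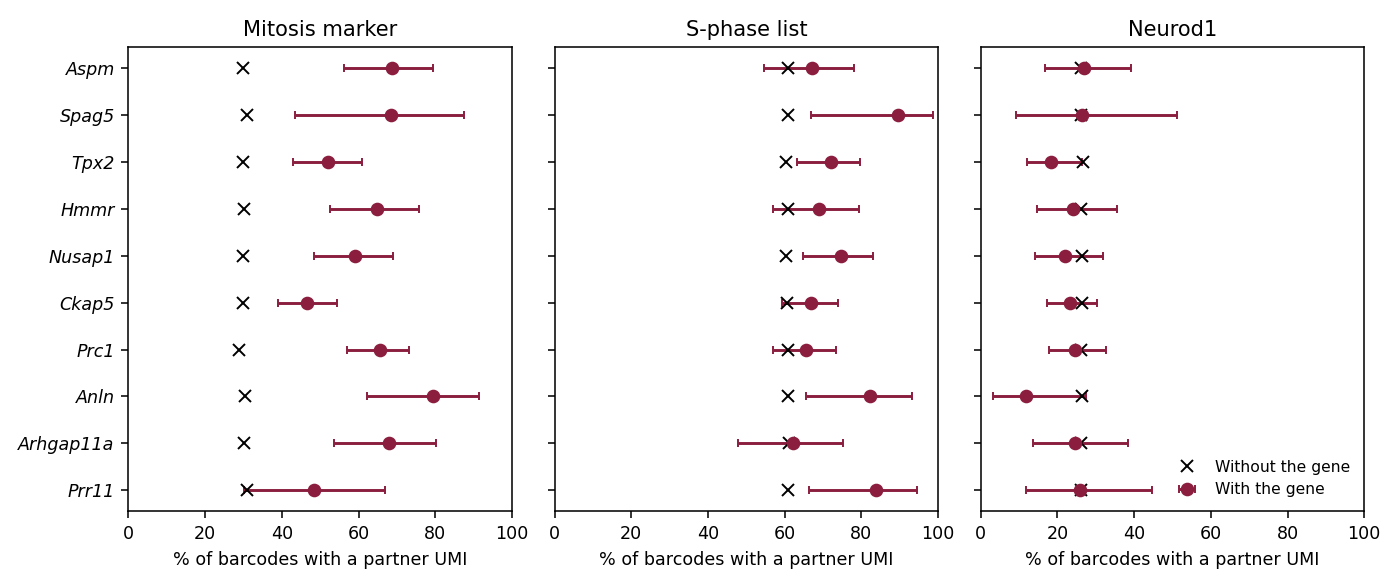
Share of thinned barcodes (%), pooled over tumours, with a UMI of a mitosis marker, of the S-phase list or of Neurod1, among barcodes with each gene (circles, 95% exact binomial interval) and without it (crosses). The circles lie right of the crosses for mitosis markers, least far for Ckap5 (46.5% against 29.9%) and Prr11. For Neurod1 the crosses lie within the intervals except for Tpx2 (26.6%, upper bound 26.3%). The intervals cover counting error over pooled barcodes and not the spread over tumours. The gap is widest for Anln (11.8% against 26.3%), from 4 of 34 barcodes. By tumour the share with Anln was 0%, 40% and 14.3%, above that without it in tumour 2 (26.6%).

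Raw counts were also summed within each tumour over barcodes with and without a thinned mitosis marker UMI, and levels were compared between these sets. The 10 genes summed to 3879, 5091 and 4474 CPM with a marker and to 906, 1291 and 1495 CPM without, log2 differences of 2.10, 1.98 and 1.58 (mean 1.89 ± 0.27). Every sum with a marker was above every sum without for 10 of 10 genes, a pattern that 5.23% of the 7302 genes counted showed, with 6.01% showing the reverse. Since the genes were chosen for their link to the cycle, this is a description. Myeloid markers were lower with a mitosis marker in each tumour (250, 1566 and 958 CPM against 1054, 3614 and 1179 CPM, with 1 of 14 higher pooled). Granule neuron markers were lower without overlap (1756, 2806 and 2308 CPM against 3350, 2839 and 4188 CPM, with 0 of 7 higher pooled). Their part in the difference was not tested. In the shallower barcodes of at least 100 but under 200 counts, thinned to 100, the mean difference of the sum was 0.45, against 1.89 in deep barcodes.

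Prc1 had 654, 1110 and 965 CPM with a marker and 99.96, 32.3 and 292 CPM without. Hmmr had 441, 587 and 472 CPM with a marker and 63.6, 32.3 and 128 CPM without. Both genes were far apart between the sets in each tumour, though in tumour 2 the level without a marker was 1 count for each. Ckap5 had 595, 718 and 810 CPM with and 270, 549 and 364 CPM without, log2 differences of 1.14, 0.39 and 1.16 (0.90 ± 0.44), the lowest mean of the 10. Its level without a marker stayed above that of any other of the genes in tumours 1, 2 and 3. Without Ckap5, the mean difference of the sum was 2.21.

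The S-phase list holds 46 genes of DNA replication and its licensing, and the sets compared had at least 2 against 0 thinned counts of it. The sum of the 10 genes was 1853, 3392 and 2737 CPM in S-phase-rich barcodes and 1584, 1717 and 2306 CPM in those with 0, log2 differences of 0.23, 0.98 and 0.25 (0.49 ± 0.43). It was higher in 3 of 3 tumours, with overlapping levels. The mitosis marker list was at 3500, 3827 and 4202 CPM against 2250, 1622 and 2431 CPM, groups that do not overlap. Among the 10 genes, only Anln had all its S-phase-rich sums (118, 261 and 116 CPM) above all others (55.0, 95.4 and 90.0 CPM), where 5.03% of 6283 genes did so and 6.24% did the reverse, as none of the 10 genes did. The Anln values of tumour 2 rested on 3 against 2 counts. Prc1 showed no common direction, at 235, 261 and 562 CPM against 275, 477 and 492 CPM. Spag5 had 99.99, 0 and 90.4 CPM against 27.5, 47.7 and 13.9 CPM, from 31 and 8 counts.

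In edgeR's quasi-likelihood fit with tumour as a block, 18 of 6283 genes passed an adjusted p of 0.05 as higher in the S-phase-rich sets (0.286%) and 43 as lower (0.684%). None of the 10 genes was among them. An unadjusted p under 0.05 was found for 2 of the 10 and 533 of 6283 genes by edgeR, and for 0 of the 10 and 120 of 6283 by DESeq2. As a description, their fitted log2 differences ran from -0.05 for Prc1 to 1.97 for Spag5 (SE 0.67), with a median of 0.27 against -0.01 for all genes tested. When the sets were made from unthinned counts, in which the S-phase-rich barcodes were also deeper, the differences of Ckap5, Nusap1 and Tpx2 were 1.07, 1.56 and 1.38, against 0.10, 0.66 and 0.26. Myeloid markers were lower in the S-phase-rich sets in each tumour (341, 2522 and 717 CPM against 1436, 4722 and 1849 CPM, with 1 of 14 markers higher), and their part in these values was not tested. In single barcodes, the S-phase list had at least 1 count in 70.6% of those with one of the 10 genes and 57.7% of those without.

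Between barcodes with and without Neurod1, the 10 genes did not share a direction over tumours. Their sum was 917, 4073 and 2405 CPM with Neurod1 and 1977, 2097 and 2685 CPM without, log2 differences of -1.11, 0.96 and -0.16 (-0.10 ± 1.03). Tumour 1 was lower with Neurod1, tumour 2 higher and tumour 3 nearly level. The value of tumour 2 rested on 43 counts in 40 barcodes with Neurod1, and 2 of those barcodes, of 668 and 380 counts, held 9 each. Leaving out the 2 barcodes richest in the genes from each tumour gave -1.01, 0.33 and -0.21, so the order of the tumours stayed. Without tumour 1 the mean was 0.40, and with the filters on genes, mitochondrial share and doublets it was 0.03, so the sign of the mean is not settled. The mitosis marker list stood at 1543, 2841 and 2302 CPM with Neurod1 and 3105, 3076 and 3701 CPM without, nearly level in tumour 2 and lower in tumours 1 and 3.

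By edgeR's quasi-likelihood test with tumour as a block, 0 of the 10 genes passed between Neurod1 sets at an adjusted p of 0.05, where 18 of 7310 genes were lower (0.246%) and 27 higher (0.369%). Of the 10 genes, 2 had an unadjusted p under 0.05 by edgeR and 1 by DESeq2, where 568 and 163 of the 7310 genes did. All 10 fitted log2 differences were negative, though that of Nusap1 was positive (0.04) with library totals as the scaling. Their median was -0.42, against -0.07 over all genes tested, and each of the 10 but Anln turned positive under at least 1 alternative. Tpx2 was nearest to the threshold, at 112, 379 and 282 CPM with Neurod1 and 337, 503 and 405 CPM without, lower in 3 of 3 tumours (log2 difference -0.94, SE 0.33, adjusted p = 0.208 by edgeR). It passed without tumour 2 (adjusted p = 0.0376 by edgeR) and with the filterByExpr filter (adjusted p = 0.0358 by edgeR). Over its 13 alternatives, its adjusted p ran from 0.0358 to 0.9999.

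Anln had 33.5, 189 and 68.5 CPM with Neurod1 and 109, 168 and 135 CPM without (log2 difference -1.14, SE 0.53, adjusted p = 0.536 by edgeR). Nusap1 had the smallest fitted difference in size (log2 difference -0.01, SE 0.34), but its tumours were not alike. It stood at 168, 568 and 257 CPM against 212, 140 and 263 CPM, log2 differences of -0.34, 2.02 and -0.03. The value of tumour 2 rested on 6 against 5 counts. Only Arhgap11a had all its sums with Neurod1 (67.1, 94.7 and 120 CPM) below all without (149, 224 and 135 CPM), as did 7.37% of all genes, and none had all above, as 4.5% did. The Arhgap11a sums with Neurod1 were 6, 1 and 14 counts, so the value of tumour 2 was 1 UMI. Of the mitosis markers, Mki67, a proliferation antigen, fell (log2 difference -0.99, SE 0.24, adjusted p = 0.0128 by edgeR). The barcodes without Neurod1 also held more myeloid and more endothelial and mural markers in each tumour, but not more of every other cell type. Oligodendrocyte lineage markers were higher with Neurod1 in tumour 1 (894.5 against 602 CPM). Erythroid markers were higher with it in tumours 1 and 2 (112 and 568 against 98.2 and 224 CPM). Myeloid markers summed to 302, 284 and 608 CPM with Neurod1 and 942, 3720 and 1300 CPM without, with 0 of 14 higher, and endothelial and mural markers to 0, 94.7 and 68.5 CPM against 247, 1035 and 248.6 CPM. Their part in these differences was not tested. Pecam1, Esam, Vtn and Cdh5 were at 0 with Neurod1.

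When barcodes were divided by both measures, the order of the resulting sets still differed between tumours. With Neurod1 and at least 2 S-phase counts, the 10 genes stood at 1018, 5381 and 2750 CPM, from 19, 17 and 89 counts. With Neurod1 and 0 S-phase counts they stood at 782, 3107 and 1821 CPM, without Neurod1 at 1956, 2639 and 2733 CPM where S-phase counts reached 2, and at 1856, 1301 and 2594 CPM where they were 0. In each tumour the S-phase-rich barcodes were above the S-phase-poor ones, both with and without Neurod1, with counting intervals that overlapped in all 3. In single barcodes Neurod1 was found in 13.2%, 27.1% and 29.3% of those with one of the 10 genes and in 23.6%, 27.0% and 31.3% of those without. A UMI of Neurod1 and one of the 10 genes stood together in 136 of 2267 barcodes.

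**Figure D4:**
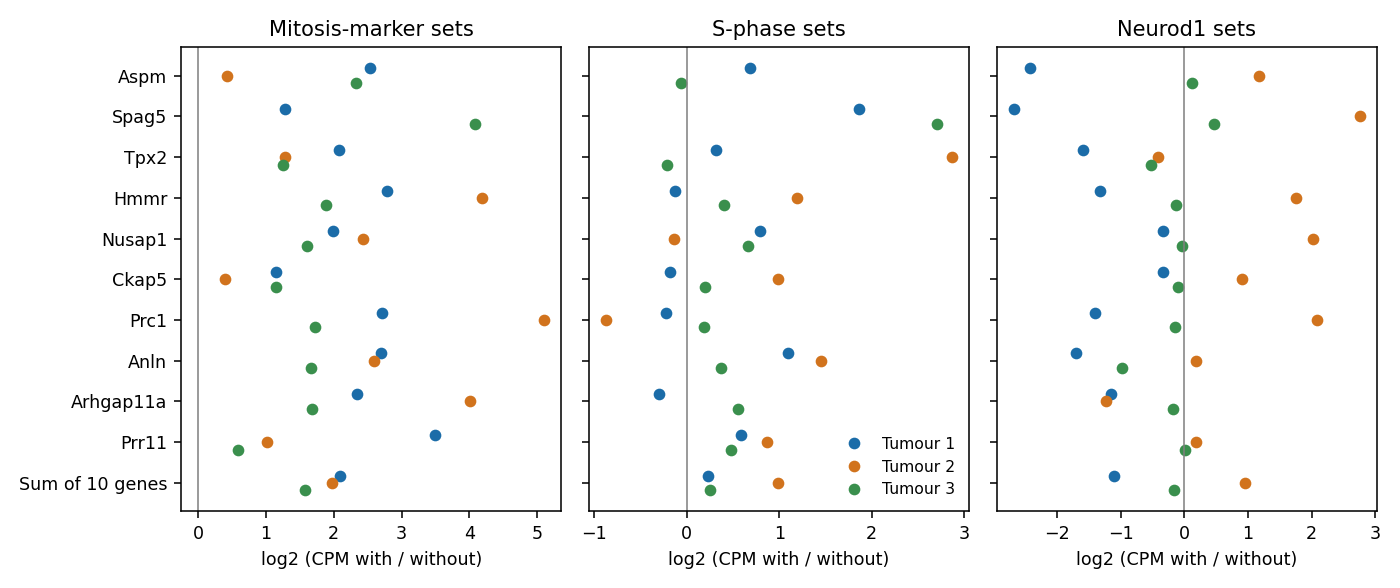
Log2 ratio of each gene's level in barcodes with against without a mitosis marker, S-phase counts or Neurod1, by tumour (points); a ratio with a level of 0 in either set is not drawn. Ratios are above 0 throughout the mitosis panel, and tumours fall on both sides of 0 for the sum only in the Neurod1 panel.

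Other genes were then compared between barcodes with and without a thinned UMI of the 10 genes, which numbered 220, 48 and 321 against 840, 100 and 738. By edgeR with tumour as a block, 33 of 7301 genes rose (0.452%) and 2 fell (0.0274%), the 10 genes themselves being left out. Of the 33, 21 belong to the 4 lists of spindle, midzone, kinetochore and mitosis marker genes, of which 97 genes were tested. Since the 10 genes were chosen with their link to cell cycle counts known, the rise of cycle genes here is a description and no independent evidence. These counts depend on the libraries, since 4 genes passed without tumour 1, 53 without tumour 2 and 11 without tumour 3, and 12 passed by DESeq2. In barcodes of at least 100 but under 200 counts none passed by edgeR, with 162 at an unadjusted p under 0.05.

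Among the genes with the largest rise were Sapcd2 (log2 difference 3.88), Ankle1 (2.92), Pif1 (2.91), Kif2c (2.56), Kifc1 (2.17), Sgol2 (2.14), Ncapg (1.97), Kif22 (1.95) and Kif23 (1.82). This log2 difference, fitted over 3 tumours, is also the measure of likeness to the 10 genes. Of those named here, only Sgol2 and Ncapg had at least 5 counts in each tumour, and the others had fewer in tumour 2. There Ankle1 and Pif1 stood at 0 CPM with the genes and 31.1 CPM without, and Kif2c had 0 counts in either set. Kif2c is a microtubule-depolymerising kinesin at centromeres, Kifc1 a minus-end kinesin of the poles, Ncapg a condensin subunit and Kif23 a motor of the midzone. Sgol2, the shugoshin that protects centromeric cohesin, had 468, 563 and 299 CPM in barcodes with the genes and 79.7, 31.1 and 111 CPM without. Sapcd2 rests on 17 counts against 3, so its size is loosely fixed (SE 1.03). Only Spock2, a proteoglycan gene, fell among the genes with 1 direction in every tumour (log2 difference -2.83), at 19.5, 70.4 and 7.9 CPM against 93.5, 623 and 62.7 CPM. Apoe also fell in the fit (-1.18) but was higher in tumour 3, and is named here after its values were seen.

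Of the kinetochore and checkpoint list, 7 of 27 genes tested rose and 0 fell, with a median log2 difference of 1.19 against -0.05 over all genes. Cenpf, a kinetochore protein of G2 and M phase, had 1892, 2041 and 1573 CPM with the genes and 401, 529 and 608 CPM without (log2 difference 1.79, SE 0.20). Casc5, the scaffold Knl1, rose by 1.75 and Cenpe, a kinetochore kinesin, by 1.53. Of the other spindle assembly and pole genes, 7 of 35 rose, with a median of 0.86, among them the kinesins Kif11 (1.76) and Kif15 (1.54) and the spindle protein gene Ckap2l (1.53). Of the other midzone and cytokinesis genes, 5 of 26 rose, with a median of 0.94, among them Incenp (1.41), of the chromosomal passenger complex, and Kif20b (1.51).

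Among the mitosis markers, 2 of 9 rose, namely Top2a (1.60) and Mki67 (1.63), and all 9 fitted differences were positive. Top2a, which decatenates chromosomes, had 2653, 2816 and 2170 CPM with the genes and 748, 779 and 841 CPM without. Ccnb1 and Cdc20, cyclin B1 and the activator of the anaphase-promoting complex, had differences of 1.48 and 1.57 and did not pass. In the S-phase list 0 of 45 genes passed in either direction, with a median of 0.20, and 0 of 13 granule progenitor genes, with a median of 0.07. At an unadjusted p under 0.05 there were 4 and 2 of them, and 366 of all 7301 genes by edgeR.

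In the neuronal differentiation list, 0 of 23 genes passed by edgeR, but all 23 fitted differences were negative, with a median of -0.56, and 11 had an unadjusted p under 0.05, as did 366 of all 7301 genes. Cntn2, an adhesion molecule of young granule neurons, had 254, 0 and 252 CPM with the genes and 561, 405 and 376 CPM without (log2 difference -0.98, adjusted p = 0.0552 by edgeR). Neurod1 had 829, 1478 and 1604 CPM against 1537, 1651 and 2241 CPM, lower in 3 of 3 tumours (log2 difference -0.62, adjusted p = 0.105 by edgeR). Myeloid markers were at 244, 352 and 1557 CPM with the genes and 982, 4080 and 881 CPM without, higher with them in tumour 3 only, and 4 of 14 were higher pooled. Their part in these values was not tested.

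**Figure D5:**
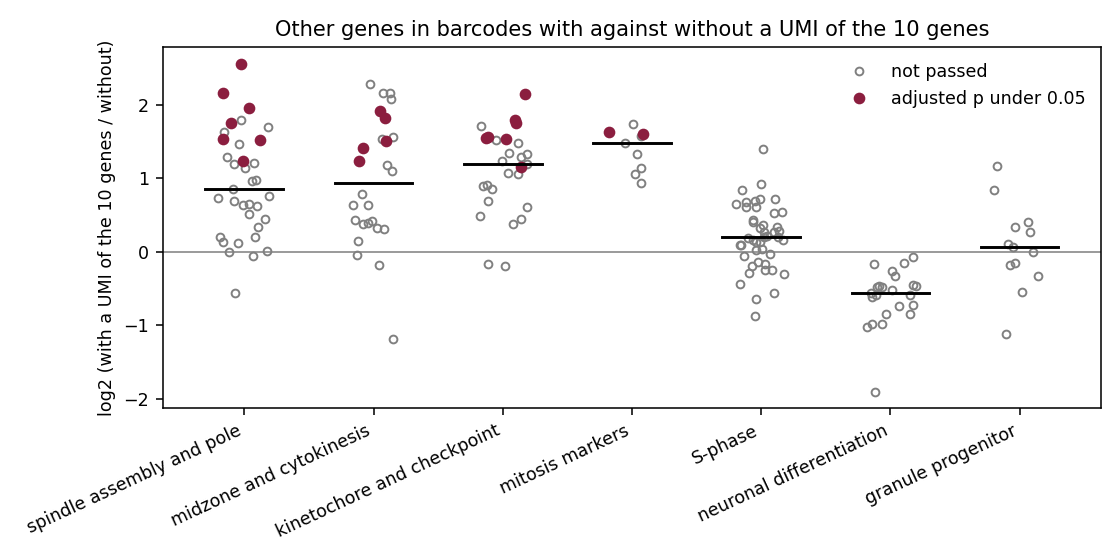
Fitted log2 difference (barcodes with against without a UMI of the 10 genes) for each tested gene of the lists; filled points passed an adjusted p of 0.05 by edgeR and bars are list medians. Filled points lie in the spindle, midzone, kinetochore and mitosis marker lists, and all 23 neuronal genes lie below 0.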

How the data were processed

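Cells of 3 tumours were dissociated with papain and libraries made by Drop-seq V3.1, per the labels' protocols. The authors deposited UMI counts per gene and barcode, with no normalisation recorded. STAR and Cell Ranger are named, per the submitters' processing notes, and their versions are not given in the sources used here. These notes name the build GRCh38, but symbols are in mouse form, so no coordinate comes from these tables; RefSeq promoters were matched by symbol alone. Every deposited barcode holds at least 50 genes.

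The members and lists were chosen with earlier results of these data known. Barcodes of at least 200 counts were thinned to 200 to form sets, and the raw counts of each set were added up within each tumour (6 sums). edgeR 4.0.16 (R 4.3.3) was run with TMM scaling, quasi-likelihood tests (two-sided), tumour as a block, genes of at least 20 counts and Benjamini-Hochberg adjustment over all genes tested; genes that formed a set were not tested. Sets of 1 tumour share the animal, which pairs them. The p-values rest on variance estimates shared in part across genes, so they do not measure each gene's own spread over 3 tumours. Scripts were tested on simulated data. There a log2 change of 1 was recovered in 8.65%, 4.90% and 5% of changed genes between member, Neurod1 and S-phase sets. A log2 change of 2 was recovered in 47.9%, 53.1% and 53%. Recovery depended on counts. Among changed genes of at least 100 counts it was 25%, 16% and 18.2% for a log2 change of 1, and 87.0%, 96.2% and 94.4% for 2. A gene that did not pass is thus not shown to be unchanged. Intervals are exact (Poisson or binomial, 95%) and cover counting error only. Doublets were left in; an alternative removed those called by Scrublet, barcodes of over 10% mitochondrial counts and those under 100 genes, which kept 955, 85 and 923 barcodes. Named genes were the 10 members, up to 4 genes per list with the smallest adjusted p, and, between barcodes with and without a member, up to 10 per direction with the largest difference among those passing with 1 direction in every tumour of at least 5 counts. One gene that the rule names is not reported here. DESeq2 1.42.0, library totals, filterByExpr, other sets and leaving out each tumour were alternatives. Barcodes of at least 100 but under 200 counts and leaving out the richest barcodes were, for the summed log2 differences, chosen after seeing the data.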

Additional observations from a re-analysis of the deposited data

How the results depend on the processing

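Depth limits these results, with a median of 84 to 105 counts per barcode and 148 barcodes of at least 200 counts in tumour 2. Of the genes called between barcodes with and without a member (35), 12 were called by DESeq2, 14 with no replicate block, 61 with another thinning seed, 55 from unthinned sets, 21 with the set defined by at least 2 members' counts, and 0 in shallower barcodes (at least 100 but under 200 counts); leaving out 1 tumour gave 4 to 53. Between Neurod1 sets (45), DESeq2 called 1, library totals 83, filterByExpr 117 and the fit with no replicate block 3; the shallower barcodes gave 0 (167 at an unadjusted p under 0.05), and leaving out 1 tumour 1 to 203. Between S-phase sets (61), DESeq2 called 5, the fit with no replicate block 9, and the shallower barcodes 0 (156 unadjusted); leaving out 1 tumour gave 1 to 135. Of the fits that left out 1 tumour, the one without tumour 2 made the most calls in each comparison. The cause of these shifts was not tested.

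The summed level was 1575 CPM without Ckap5, against 1969. The mean log2 difference between mitosis-marker sets (1.89) was 2.21 without Ckap5 and 0.45 in the shallower barcodes. The mean between Neurod1 sets (-0.10) turned positive without tumour 1 (0.399; leaving out 1 tumour gave -0.634 to 0.399) and with filtered barcodes (0.031).

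Of 263 alternatives for single members, 6 had an adjusted p under 0.05 where the reported fit did not, for Tpx2 between Neurod1 sets and, where values are only a description, for Spag5, Tpx2, Ckap5 and Nusap1 between S-phase sets; 23 changed sign. Spag5 between unthinned S-phase sets is not counted among the 263, since 1 set had no counts and the difference is not finite. That fit also passed (adjusted p = 0.0201 by edgeR). Between Neurod1 sets, leaving out 1 tumour gave log2 differences of -1.54 to 0.20 for Aspm, -0.18 to 0.071 for Ckap5, -0.51 to 0.22 for Hmmr, -0.15 to 0.38 for Nusap1, -0.49 to 0.39 for Prc1 and -1.07 to 0.73 for Spag5. Nusap1 was also positive by DESeq2 (0.11), with library totals (0.037), with no replicate block (0.092) and from unthinned sets (0.025), and in the shallower barcodes Arhgap11a (0.32), Prr11 (0.53) and Tpx2 (0.16) were positive. Between S-phase sets, leaving out 1 tumour gave -0.089 to 0.71 for Arhgap11a, -0.096 to 0.68 for Aspm and -0.45 to 0.014 for Prc1. Arhgap11a was negative with filtered barcodes (-0.14) and another thinning seed (-0.18), Prc1 positive with that seed (0.39) and from unthinned sets (0.85), and in the shallower barcodes Hmmr (-0.80) and Prr11 (-1.92) were negative. The causes were not tested.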
